A study of Mus musculus with 4 samples.

Results

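The genes described here are 10 mouse genes of canonical Wnt signalling and posterior patterning: Axin2, Nkd1 and Notum, which act as feedback inhibitors of the pathway, Lef1 and Tcf7, which encode its DNA-binding factors, the zinc-finger factor genes Sp5 and Sp8, and the caudal homeobox genes Cdx1, Cdx2 and Cdx4. The rule names the genes and uses no measured value, although they were proposed with earlier results of these data known, and all 10 had a row in the tables, 13 of 35656 transcript rows and 10 of 26983 gene symbols. The series concerns the Evx1as/Evx1 locus in differentiating mouse embryonic stem cells. All 4 libraries analysed here came from CJ9 embryonic stem cells of strain 129S4/SvJae, labelled WT and titled as Cas9 only, and all were cultured without LIF, the cytokine that maintains the undifferentiated state. By their titles and harvest entries, 2 libraries are from day 6 and 2 from day 4 of LIF withdrawal, grown in medium with fetal calf serum. The culture text in the labels differs for 3 of the 4: it gives 4 and 6 days without LIF for day 6 replicates 1 and 2, and 2 and 6 days for day 4 replicates 1 and 2. Knockout cells were not analysed here, and the comparison is day 6 against day 4 with the locus intact. Whether the pair of libraries at each day came from separate cultures is not stated in the labels. The p-values therefore cover spread from library to library that may be technical.

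In canonical Wnt signalling, a secreted Wnt protein binds Frizzled and LRP receptors, the destruction complex that degrades beta-catenin is inhibited, and beta-catenin enters the nucleus and binds factors of the TCF/LEF family on target genes. Several targets encode inhibitors of the pathway itself, so that their transcripts are widely used as a readout of signalling. In the mouse embryo the pathway is required for the primitive streak and for the posterior axis, where Sp5, Sp8 and the Cdx genes respond to it and the Cdx factors in turn regulate Hox genes.

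A promoter window of each member lower at day 6 is shown first, because the motifs of TCF/LEF factors and of Sp factors can be read there directly. Each line gives the 250 bases before an annotated start, 5′ to 3′ on the strand of the gene, from RefSeq on build GRCm38.p6. Capitals mark matches on either strand to CTTTGAT or CTTTGAA, the core that TCF/LEF factors bind, to the GC box GGGCGG, which Sp factors bind, or to TTTATTG, a core bound by Cdx factors.
Sp5, plus strand, chr2:70474673-70474922: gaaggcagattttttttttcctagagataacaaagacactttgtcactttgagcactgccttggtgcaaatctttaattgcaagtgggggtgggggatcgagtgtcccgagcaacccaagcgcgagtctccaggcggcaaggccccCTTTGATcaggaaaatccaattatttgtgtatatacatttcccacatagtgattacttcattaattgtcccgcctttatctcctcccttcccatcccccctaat
Axin2, plus strand, chr11:108920099-108920348: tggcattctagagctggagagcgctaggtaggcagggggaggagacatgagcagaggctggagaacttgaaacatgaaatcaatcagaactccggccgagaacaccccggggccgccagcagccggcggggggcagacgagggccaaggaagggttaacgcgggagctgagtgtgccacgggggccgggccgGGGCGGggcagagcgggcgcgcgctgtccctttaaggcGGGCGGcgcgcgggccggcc
Lef1, plus strand, chr3:131110047-131110296: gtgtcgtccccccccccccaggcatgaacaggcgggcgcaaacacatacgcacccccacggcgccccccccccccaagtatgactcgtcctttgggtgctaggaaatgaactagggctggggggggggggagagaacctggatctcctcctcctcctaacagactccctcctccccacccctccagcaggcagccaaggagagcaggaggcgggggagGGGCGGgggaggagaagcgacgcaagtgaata
Tcf7, minus strand, chr11:52282596-52282845: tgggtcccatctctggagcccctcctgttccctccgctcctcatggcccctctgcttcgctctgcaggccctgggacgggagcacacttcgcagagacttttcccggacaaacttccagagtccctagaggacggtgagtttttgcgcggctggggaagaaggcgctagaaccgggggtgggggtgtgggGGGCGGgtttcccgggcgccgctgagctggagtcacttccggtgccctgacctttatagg
The Sp5 window held 1 match to CTTTGAT, 98 to 104 bases before the start, and no GC box. The Axin2 window held 2 GC boxes, at 15 to 20 and 53 to 58 bases before the start, the Lef1 window 1 at 27 to 32 bases, and the Tcf7 window 1 at 55 to 60 bases. Neither TCF/LEF core was found in these 3 windows. Windows were on hand for 8 of the 10 members, 14 in all, since Lef1, Tcf7 and Sp8 have several annotated starts. Of these 14, 2 held CTTTGAT or CTTTGAA, the Sp5 window and 1 of Sp8 (chr12:118846983-118847232, a match to CTTTGAA on the minus strand), 7 held GGGCGG and 1, of Sp8, held TTTATTG. The 7 were windows of Axin2, Lef1, Sp8 and Tcf7, and windows of a gene can overlap. Those of Lef1 at chr3:131110047-131110296 and chr3:131110073-131110322 hold the same GC box, counted for each. The printed Tcf7 window belongs to the downstream of its annotated starts. The window of the upstream start (chr11:52283015-52283264) had 76.0% GC and held 2 GC boxes. The only Tcf7 transcript row, NM_009331, begins downstream of both windows. Of all 32851 promoter windows of that length, 7.48% held CTTTGAT or CTTTGAA, 32.7% held GGGCGG and 4.20% held TTTATTG. The printed Sp5 window had 46.0% GC, and those of Axin2, Lef1 and Tcf7 had 69.2, 66.4 and 64.4%, against a median of 52.4% over the 32851 windows. A match describes the sequence and does not show binding, and sites outside these windows were not searched.

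The day 4 libraries stood far apart, which bears on every value below. Values are FPKM, a measure of fragments scaled to transcript length and library size, summed per gene symbol. Over the 11716 genes that averaged 1 FPKM or more, the difference of replicate 2 minus replicate 1 on the log2(FPKM + 1) scale had an SD of 0.36 at day 6 and 1.69 at day 4, and 17 genes at day 6 and 2525 at day 4 differed by more than 2 log2 units. The day 4 gap ran with the GC content of the transcript: its median was -1.72 for genes of 36 to 38% GC and 1.75 for genes of 64 to 66% GC. Depth, judged from the widths of the deposited intervals, was near 6070000 and 5390000 fragments for day 6 replicates 1 and 2, and near 3600000 and 3420000 for day 4 replicates 1 and 2. The pluripotency gene Pou5f1 (Oct4), a defining marker of embryonic stem cells, was given as 54.9 and 42.0 FPKM in day 6 cells, against 368 and 376 in day 4 cells. The summed FPKM of 8 fibroblast markers was 150 and 283 at day 6 and 11.7 and 8.63 at day 4, and 5 of the 6 tested were higher at day 6 without overlap, where 41.6% of all genes tested were. The 8 primitive streak markers were all lower at day 6 without overlap, where 11.5% of all genes tested were, and summed to 50.5 and 42.5 FPKM at day 6, and to 316 and 865 FPKM at day 4. The 8 embryonic stem cell markers summed to 161 and 145 FPKM at day 6, and to 605 and 885 FPKM at day 4, with 4 lower and 4 higher at day 6 without overlap. The 8 visceral endoderm markers summed to 14.3 and 20.3 FPKM at day 6, and to 1.04 and 0.222 FPKM at day 4, with Ttr and Sox17 higher and Afp listed at 0 throughout. Of these markers, Col1a2, Col3a1, Postn, Ttr, Sox17 and Dppa3 averaged under 1 FPKM at day 4, and Gsc at day 6. Each was thus kept for testing through its higher day alone, so no call is drawn from it. No marker passed the test, and the part of these cell types in the values below was not tested. For every gene below, fewer cells that express it and less RNA per cell cannot be told apart.

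Of the 10 members, Axin2, Sp5, Lef1 and Tcf7 lay lower in each day 6 library than in either day 4 library, Notum lay higher in each, Sp8, Nkd1, Cdx1 and Cdx2 had overlapping days, and Cdx4 was listed at 0 in all 4 libraries. Of all genes tested, 11.5% were lower and 41.6% higher at day 6 without overlap. None of the 9 members tested passed the adjusted threshold of 0.05 in limma, and neither did any of the 11716 genes (0% called, smallest adjusted p = 0.267, 1793 genes at an unadjusted p under 0.05). At an unadjusted p under 0.05 stood 4 members, Axin2, Sp5, Lef1 and Tcf7. An exact two-sided permutation test of 2 libraries against 2 cannot give a p under 0.333. The median log2 difference of the 9 tested members was -1.18, whereas that of all genes tested was 0.51, so differences are also given relative to that median. Without day 4 replicate 2 the median of the 9 was -0.32 and that of all genes 0.37. Sp8 and Notum passed the filter through 1 day only, with means under 1 FPKM at day 6 for Sp8 and at day 4 for Notum.

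**Figure D1:**
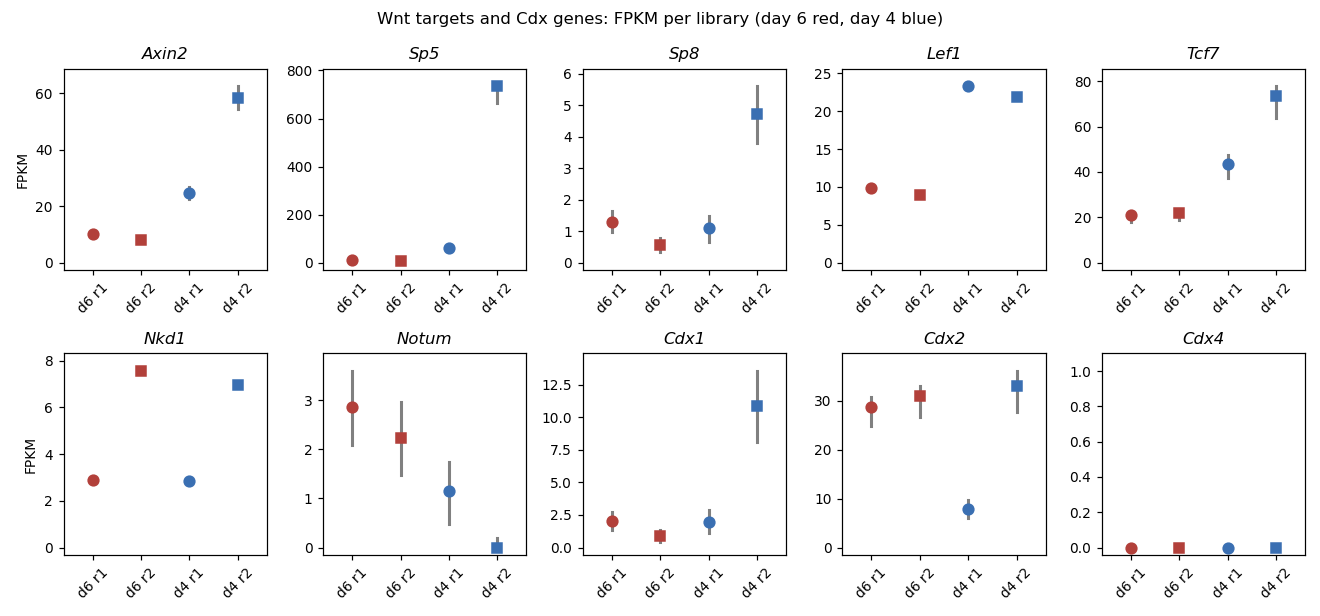
FPKM of each gene in each library, day 6 replicates in red and day 4 replicates in blue (circles replicate 1, squares replicate 2), each panel on its own linear axis from 0. Grey bars are the deposited intervals, shown for genes with 1 transcript row. Axin2, Sp5, Lef1 and Tcf7 lie lower in both day 6 libraries, and day 4 replicate 2 stands highest for Sp5, at 734 FPKM.

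Among the 3 feedback inhibitors, only Axin2 was lower at day 6 without overlap. Axin2, a scaffold of the destruction complex and a target used as a reporter of the pathway, lies on the plus strand at chr11:108920349-108950781 (mm10, transcript NM_015732). It was given as 10.2 FPKM (deposited interval 9.13 to 11.2) and 8.11 FPKM (7.15 to 9.09) in day 6 replicates 1 and 2, and as 24.7 FPKM (22.6 to 26.9) and 58.5 FPKM (54.6 to 62.5) in day 4 replicates 1 and 2. The lower day 4 library was 2.43 times the higher day 6 library, and no deposited interval of one day reached one of the other. The means were 9.15 ± 1.47 FPKM in day 6 cells, against 41.6 ± 23.9 in day 4 cells (SD, n = 2 each). The log2 difference was -1.96 with a standard error of 0.59, or -2.47 relative to the median of all genes (limma, adjusted p = 0.290). The estimate was -2.56 without day 4 replicate 1 and -1.35 without day 4 replicate 2. Both passed (limma, adjusted p = 0.000643 and 0.00646), on the assumption that the lone day 4 library varies like the pair at day 6, and 66.9 and 51.9% of all genes tested passed as well.

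Nkd1, which binds Dishevelled and damps Wnt signalling, was split by replicate and not by day. It lies on the plus strand of chromosome 8 and has 2 transcript rows, and NM_027280 (chr8:88521344-88594887) held nearly all of its FPKM in each library. Its summed FPKM was 2.91 and 7.55 in day 6 replicates 1 and 2, and 2.87 and 6.95 in day 4 replicates 1 and 2. Replicate 2 was thus 2.60 times replicate 1 at day 6 and 2.42 times at day 4. The log2 difference between the days was 0.06 with a standard error of 0.65 (limma, adjusted p = 0.970), and its sign turned with the scaling: it was -0.57 with each library centred on its median, -0.54 with quantile normalization and -0.40 after correction for GC content.

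Notum, a secreted enzyme that removes the lipid from Wnt proteins and so inactivates them, ran the other way from Axin2. It lies on the minus strand at chr11:120653789-120660837 (NM_175263). It was given as 2.86 FPKM (2.09 to 3.59) and 2.23 FPKM (1.48 to 2.96) at day 6, and as 1.15 FPKM (0.484 to 1.74) and 0 (upper bound 0.196) at day 4. Both day 6 values were above both day 4 values, although the intervals of day 6 replicate 2 and day 4 replicate 1 overlapped. The log2 difference was 1.27 with a standard error of 0.52, or 0.75 relative to the median of all genes (limma, adjusted p = 0.350). After GC correction the days overlapped, with a log2 difference of 0.96, and with a smaller pseudocount the log2 difference was 2.89. The difference was 1.82 without day 4 replicate 1 and 0.71 without day 4 replicate 2. Notum was kept by the filter on low values through its day 6 level alone, so no call is drawn from these.

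The genes of both Wnt-responsive TCF/LEF factors were lower at day 6. Tcf7 (TCF1), on the minus strand at chr11:52252604-52282571 (NM_009331), was given as 20.8 FPKM (17.8 to 22.7) and 21.96 FPKM (18.8 to 23.8) at day 6, and as 43.5 FPKM (37.4 to 47.4) and 73.3 FPKM (64.0 to 77.8) at day 4. Its days did not overlap, and the lower day 4 library was 1.98 times the higher day 6 library. The log2 difference of Tcf7 was -1.36 with a standard error of 0.49, or -1.87 relative to the median of all genes (limma, adjusted p = 0.318). Lef1, on the plus strand of chromosome 3, had the closest replicates of any member at day 4. Its 3 transcript rows summed to 9.87 and 8.98 FPKM at day 6, and to 23.3 and 21.9 FPKM at day 4, or 9.42 ± 0.627 and 22.6 ± 1.01 FPKM (SD, n = 2 each). The lower day 4 library was 2.22 times the higher day 6 library. The log2 difference of Lef1 was -1.18 with a standard error of 0.42, or -1.69 relative to the median (limma, adjusted p = 0.314). It was the member whose estimate moved least when a library was left out, from -1.24 to -1.12. The call itself depended on the day 4 libraries: Lef1 passed without day 4 replicate 1 or 2 (limma, adjusted p = 0.00529 and 0.00609), as did Tcf7 (-1.73 and -0.99, limma, adjusted p = 0.00112 and 0.00826), where 66.9 and 51.9% of all genes passed.

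Of the other TCF family genes, Tcf7l1 had overlapping days and Tcf7l2 was lower at day 6. Tcf7l1 (TCF3), which acts mainly as a repressor in embryonic stem cells, was given as 90.2 and 115 FPKM in day 6 cells, against 119.5 and 91.5 in day 4 cells, with overlapping days and a log2 difference of -0.04 with a standard error of 0.47 (limma, adjusted p = 0.972). Tcf7l2 (TCF4) was given as 10.3 and 10.9 FPKM in day 6 cells, against 14.3 and 19.4 in day 4 cells, lower at day 6 without overlap (-0.60, limma, adjusted p = 0.526). Whether these differences differ from those of Tcf7 and Lef1 was not tested. Per length, Tcf7l1 held 68.7 and 73.3% of the summed FPKM of the 4 genes at day 6, and 59.6 and 44.4% at day 4. Tcf7 held 15.9 and 14.02% at day 6 and 21.7 and 35.6% at day 4. Lef1 held 7.52 and 5.74% at day 6 and 11.6 and 10.6% at day 4.

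The rows of Lef1 describe transcripts that differ in exons. By the linked GENCODE M21 models, NM_010703 (chr3:131110297-131224357) has 12 exons and 397 codons, and NM_001276402, over the same span, has 10 exons and 384 codons, lacking an exon of 84 bases and one of 41 bases. NM_001276403 (chr3:131112791-131224357) starts in the first intron and has 331 codons, so that it lacks the part of the N terminus, known to bind beta-catenin, that the first exon encodes. NM_001276402 held 65.9 and 83.7% of the Lef1 FPKM in day 6 replicates 1 and 2, and 62.3 and 89.0% in day 4 replicates 1 and 2. It was the main row in each library and was lower at day 6 without overlap, at 6.50 and 7.51 FPKM in day 6 cells, against 14.5 and 19.5 in day 4 cells. The full-length row NM_010703 held 34.1 and 1.17% at day 6 and 34.7 and 9.99% at day 4, and so was split by replicate more than by day. The row that starts in the first intron was given as 0.0000866 FPKM (interval 0 to 0.0937) and 1.36 FPKM (0.697 to 2.04) at day 6, and as 0.699 FPKM (0.0910 to 1.37) and 0.222 FPKM (0 to 0.461) at day 4. These rows share most exons, so their split is an estimate of the authors' quantification.

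**Figure D2:**
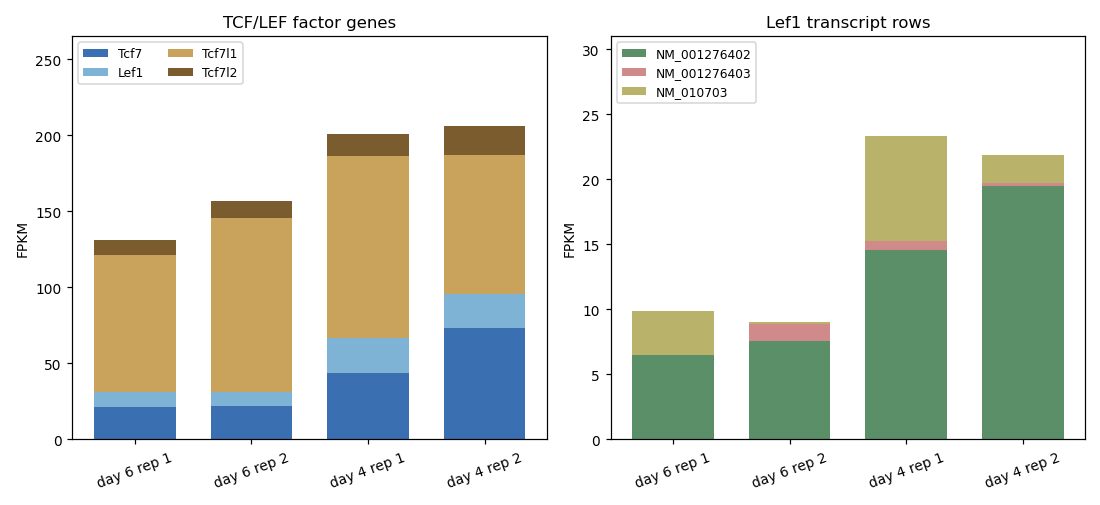
Stacked FPKM per library of the 4 TCF/LEF factor genes (left) and of the 3 Lef1 transcript rows (right), day 6 libraries left of day 4 libraries. Tcf7 and Lef1 are smaller in both day 6 libraries, Tcf7l1 overlaps between the days, and NM_001276402 is the largest Lef1 row in each library.

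Sp5 had the largest difference of the members and also the least replicated level. Sp5, a transcription factor of the Sp family that is induced directly by Wnt signalling, lies on the plus strand at chr2:70474923-70477726 (NM_022435, 62.0% GC). It was given as 10.5 FPKM (8.59 to 12.1) and 7.24 FPKM (5.70 to 8.72) in day 6 replicates 1 and 2, and as 59.1 FPKM (50.9 to 63.5) and 734 FPKM in day 4 replicates 1 and 2. The deposited interval of the last value, 664 to 712 FPKM, does not contain it. Both day 6 libraries lay below both day 4 libraries, and the lower day 4 library was 5.64 times the higher day 6 library. The means were 8.86 ± 2.29 FPKM in day 6 cells, against 397 ± 478 in day 4 cells (SD, n = 2 each). The log2 difference was -4.43 with a standard error of 1.30 (limma, adjusted p = 0.288), the 6th lowest of the 11716 genes. It was -6.24 without day 4 replicate 1 and -2.63 without day 4 replicate 2 (limma, adjusted p = 0.000153 and 0.00232), again with 66.9 and 51.9% of all genes passing. Genes within 2 percentage points of its GC content had a median day 4 gap of 1.48 log2 units (n = 604), against 3.61 for Sp5, and after GC correction the gap of Sp5 was 2.01. The difference between the days was -4.49 after that correction.

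Sp8, the relative of Sp5 that acts with it downstream of Wnt in the posterior embryo, was low and its days overlapped. It lies on the plus strand at chr12:118846329-118852578 (NM_177082). It was given as 1.30 FPKM (0.966 to 1.64) and 0.559 FPKM (0.334 to 0.770) at day 6, and as 1.09 FPKM (0.655 to 1.48) and 4.71 FPKM (3.79 to 5.599) at day 4. Only day 4 replicate 2 stood above the rest. The log2 difference was -0.87 with a standard error of 0.64 (limma, adjusted p = 0.532), and it was -0.14 with day 4 replicate 2 left out and -1.59 with day 4 replicate 1 left out. Sp8 was kept by the filter through its day 4 level alone, so no call is drawn from these. Sp5 held 88.9 and 92.8% of the summed FPKM of Sp5 and Sp8 at day 6, and 98.2 and 99.4% at day 4. Of the other 7 genes of the Sp family, 3 were tested. Sp2 and Sp3 were lower at day 6 without overlap, where 11.5% of all genes tested were. Neither passed (limma, adjusted p = 0.493 and 0.722). Sp1, a ubiquitous factor, had overlapping days at 9.89 and 9.98 FPKM in day 6 cells, against 20.2 and 5.39 in day 4 cells.

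Of the Cdx genes, Cdx1 and Cdx2 had overlapping days, and whether their differences differ from each other was not tested. Cdx2, which patterns the posterior axis and is also required in trophectoderm and intestine, lies on the minus strand at chr5:147300900-147307249 (NM_007673). It was given as 28.7 FPKM (24.7 to 30.8) and 30.9 FPKM (26.6 to 33.0) at day 6, and as 7.87 FPKM (6.02 to 9.76) and 33.0 FPKM (27.7 to 36.002) at day 4. Day 4 replicate 1 was low, and the other 3 libraries had overlapping intervals. The log2 difference of Cdx2 was 0.83 with a standard error of 0.78 (limma, adjusted p = 0.626). Its sign depended on 1 library: it was -0.14 with day 4 replicate 1 left out and 1.79 with day 4 replicate 2 left out (limma, adjusted p = 0.509 and 0.00254, with 66.9 and 51.9% of all genes passing). The median day 4 gap of genes of like GC content was 0.87 log2 units (n = 2168), against 1.94 for Cdx2.

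Cdx1, a direct Wnt target in the mouse streak and tail bud, lies on the minus strand at chr18:61018862-61036199 (NM_009880). It was given as 2.02 FPKM (1.32 to 2.70) and 0.867 FPKM (0.394 to 1.31) at day 6, and as 1.96 FPKM (1.12 to 2.91) and 10.8 FPKM (8.13 to 13.5) at day 4. As with Sp8, only day 4 replicate 2 stood above the rest. The log2 difference of Cdx1 was -1.32 with a standard error of 0.81 (limma, adjusted p = 0.473). It was -0.32 with day 4 replicate 2 left out and -2.32 with day 4 replicate 1 left out (limma, adjusted p = 0.483 and 0.00329, with 51.9 and 66.9% of all genes passing). Genes of like GC content had a median day 4 gap of 1.498 log2 units (n = 585), against 2.00 for Cdx1. Cdx4, which acts in the posterior embryo with the other Cdx factors (chrX:103321398-103330224, plus strand, NM_007674), was listed at 0 in all 4 libraries, as were 28.2% of all transcript rows. Cdx2 held 93.4 and 97.3% of the summed Cdx FPKM at day 6, and 80.0 and 75.3% at day 4, so that its share was higher in both day 6 libraries.

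Because Cdx2 is used in several tissues, markers of these were set beside it. Of 9 trophoblast markers 7 were tested, and 5 of them (Tfap2c, Krt7, Hand1, Plac1 and Ets2) were higher at day 6 without overlap and 1, Eomes, was lower, against 41.6% of all genes tested higher and 11.5% lower. None passed. Their summed FPKM was 421 and 578 at day 6 and 195 and 209 at day 4, but Elf5, a defining factor of trophoblast stem cells, stood at 0.153 and 0.224 FPKM in day 6 cells and at 0 in either day 4 library, and Tpbpa was listed at 0 throughout. The 7 intestinal markers summed to 2.24 and 1.498 FPKM at day 6 and to 1.72 and 0.870 FPKM at day 4, none of them reached a mean of 1 FPKM, and Fabp2 was listed at 0 throughout. The part of trophoblast cells in the Cdx2 level was not tested.

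When the 4 libraries were put on other scales, the 4 members lower at day 6 kept their direction and 2 more, Cdx1 and Sp8, joined them. No call is drawn for Sp8, which the filter on low values kept through its day 4 level alone. Sp8 and Cdx1 were also lower without overlap after centring each library on its median, after quantile normalization and after GC correction, 6 members under each. The shares of all genes lower and higher without overlap were then 26.4 and 20.3%, 25 and 23.1%, and 27 and 27.9%, in place of 11.5 and 41.6%. Under these scalings all genes together had a median of -0.12, -0.02 and 0.02, in place of 0.51. No gene passed limma's adjusted threshold under any of them. Under the GC correction the log2 differences of Axin2, Tcf7, Lef1, Sp8 and Cdx1 were -2.48, -2.001, -1.85, -1.56 and -1.38, with adjusted p from 0.182 to 0.370.

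**Figure D3:**
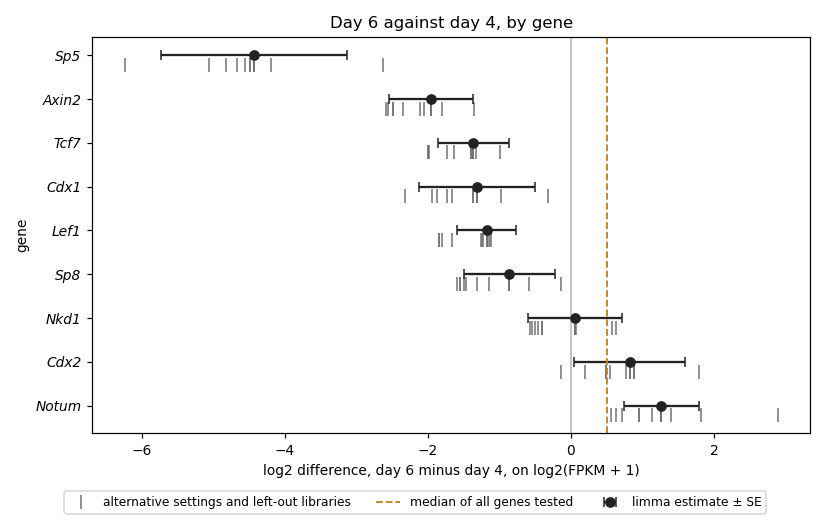
Log2 difference of day 6 minus day 4 for the 9 tested genes on the log2(FPKM + 1) scale. Black points are limma estimates with their standard error, grey ticks are the alternative settings and left-out libraries, and the dashed line is the median of all genes tested, 0.51. Sp5, Axin2, Tcf7, Cdx1, Lef1 and Sp8 stay below 0 at every tick, whereas the ticks of Nkd1 and Cdx2 lie on both sides. Sp8 was kept by the filter on low values through its day 4 level alone.

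Of the 9 tested members, 7 were higher in day 4 replicate 2 than in replicate 1, where 42.9% of all genes tested were. The median gap of the 9 was 1.21 log2 units at day 4 in favour of replicate 2. The day 4 gap rose with GC content, so the 42.9% over all GC contents is not a like baseline. Medians of genes within 2 percentage points of GC favoured replicate 2 for Axin2, Sp5 (1.48), Nkd1, Notum, Cdx1 (1.498) and Cdx2 (0.87). They favoured replicate 1 for Sp8, Lef1 and Tcf7. Each tested member except Notum had a gap above the median of its matched genes. Lef1 had a gap of -0.09 and Notum one of -1.11. At day 6 the largest gap was that of Nkd1, at 1.13 log2 units. Sp8, at 49.6% GC, and Sp5 lay well above the 90th percentile of genes of their GC content, Cdx2, at 57.5% GC, lay just above it (1.94 against 1.91), and Notum, at 58.0% GC, lay below the 10th. The filter on low values kept Sp8 through day 4 alone, where replicate 2 held 4.71 FPKM and replicate 1 held 1.09. It kept Notum through day 6 alone. No call is drawn from the gaps of Sp8 and Notum.

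**Figure D4:**
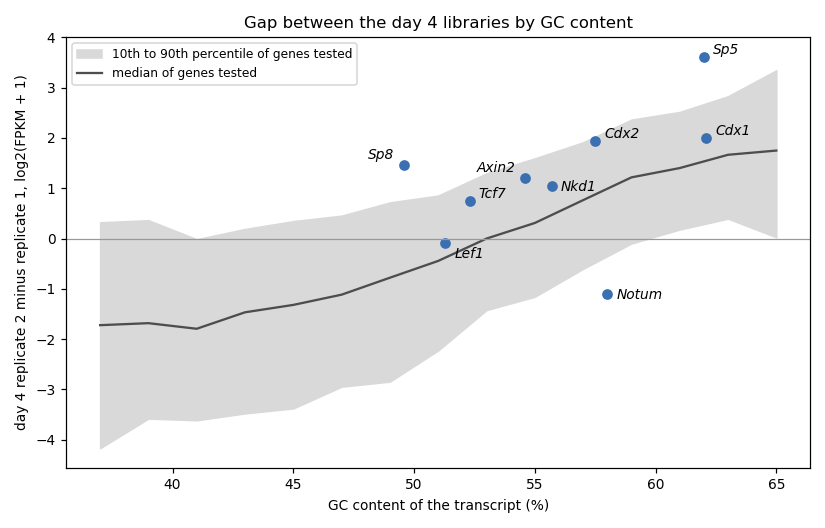
Difference of day 4 replicate 2 minus replicate 1 on the log2(FPKM + 1) scale against the GC content of the transcript in percent. The line is the median and the band the 10th to 90th percentile of the genes tested in bins of GC content, and blue points are the members. The line climbs with GC content, and Sp5 (3.61) and Sp8 (1.45) lie above the band, Cdx2 (1.94) at its upper edge and Notum (-1.11) below it. The filter on low values kept Sp8 through day 4 alone and Notum through day 6 alone.

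The order of the levels changed between the days. At day 6 Cdx2 (29.8 ± 1.60 FPKM) and Tcf7 (21.4 ± 0.820 FPKM) were the most abundant members and did not overlap. Lef1, Axin2 and Sp5 followed at 9.42 ± 0.627, 9.15 ± 1.47 and 8.86 ± 2.29 FPKM and overlapped one another. Nkd1 (5.23 ± 3.29 FPKM) overlapped Sp5, and Notum, Cdx1 and Sp8 came last at 2.55 ± 0.452, 1.44 ± 0.816 and 0.931 ± 0.527 FPKM (SD, n = 2 each), the last pair overlapping. In both day 4 libraries Sp5 came first, then Tcf7, then Axin2. Next came Lef1 and then Cdx2 in day 4 replicate 1, and Cdx2 and then Lef1 in day 4 replicate 2.

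Other genes of the pathway, taken from lists, are read against the 11.5% of all genes tested that were lower and the 41.6% that were higher at day 6 without overlap. Of 12 further Wnt target genes 10 were tested, and 3 (Ccnd1, Myc and Znrf3) were lower and 3 (Apcdd1, Ascl2 and Bambi) higher at day 6 without overlap, with a median log2 difference of 0.38, against 0.51 over all genes. None passed in either direction. Ccnd1 (cyclin D1), the member of that list with the smallest p, was given as 16.0 and 14.5 FPKM in day 6 cells, against 73.5 and 74.0 in day 4 cells (-2.20 with a standard error of 0.42, limma, adjusted p = 0.267). Apcdd1, a membrane inhibitor of Wnt receptors, was given as 10.9 and 11.4 FPKM in day 6 cells, against 2.15 and 3.52 in day 4 cells. Bambi, a decoy receptor of BMP and activin that Wnt signalling also induces, was given as 6.18 and 6.03 FPKM in day 6 cells, against 1.32 and 2.88 in day 4 cells. Apcdd1 was higher at day 6 without overlap, whereas Axin2, also an inhibitor of the pathway, was lower, and neither passed.

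Genes of the destruction complex and Dishevelled had 10 of 14 tested members higher at day 6 without overlap and 1, Gsk3a, lower, where 41.6% of all genes were higher and 11.5% lower. None passed, and the median log2 difference of 0.73 lay 0.22 above that of all genes. Dvl3, a Dishevelled, was given as 37.6 and 35.9 FPKM in day 6 cells, against 15.2 and 14.8 in day 4 cells. Tnks (tankyrase), which marks Axin proteins for degradation, was given as 24.8 and 25.9 FPKM in day 6 cells, against 7.62 and 11.8 in day 4 cells. Axin1, the constitutive relative of Axin2, had overlapping days at 18.9 and 18.3 FPKM in day 6 cells, against 15.1 and 29.9 in day 4 cells. Among 13 tested nuclear partners, 2 were higher and 3 lower without overlap, with a median log2 difference of -0.17, and none passed. Ctnnb1 (beta-catenin) was given as 194 and 184 FPKM in day 6 cells, against 112 and 37.7 in day 4 cells (1.52 with a standard error of 0.68, limma, adjusted p = 0.376).

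Of 19 Wnt ligand genes 13 were tested, 3 were lower (Wnt3, Wnt5b and Wnt8a) and 3 higher (Wnt2, Wnt5a and Wnt9a) at day 6 without overlap, against 11.5% of all genes lower and 41.6% higher, and none passed. Wnt8a, a canonical ligand of the streak, was given as 0.665 and 0.338 FPKM in day 6 cells, against 4.31 and 12.8 in day 4 cells. Wnt5a, the main non-canonical ligand of the elongating axis, was given as 15.8 and 14.2 FPKM in day 6 cells, against 1.53 and 1.32 in day 4 cells. Of 16 genes of posterior progenitors and presomitic mesoderm 13 were tested, 6 were lower and 5 higher without overlap, against 11.5% of all genes lower and 41.6% higher, and none passed. T (Brachyury), a Wnt-responsive factor of that list, was given as 10.4 and 10.97 FPKM in day 6 cells, against 131 and 252 in day 4 cells, whereas Hoxc9, one of the posterior Hox genes, was given as 3.35 and 4.64 FPKM in day 6 cells, against 0.375 and 0.381 in day 4 cells. The 6 lower genes were T, Nkx1-2, Fgf8, Cyp26a1, Fgf4 and Fgf17, and the 5 higher ones were Greb1, Hoxb8, Hoxb9, Hoxc8 and Hoxc9. Wnt2, Hoxb8, Hoxc8 and Hoxc9 averaged under 1 FPKM at day 4, and Wnt8a and Fgf4 at day 6. The filter on low values kept each through its higher day alone, so no call is drawn from them.

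**Figure D5:**
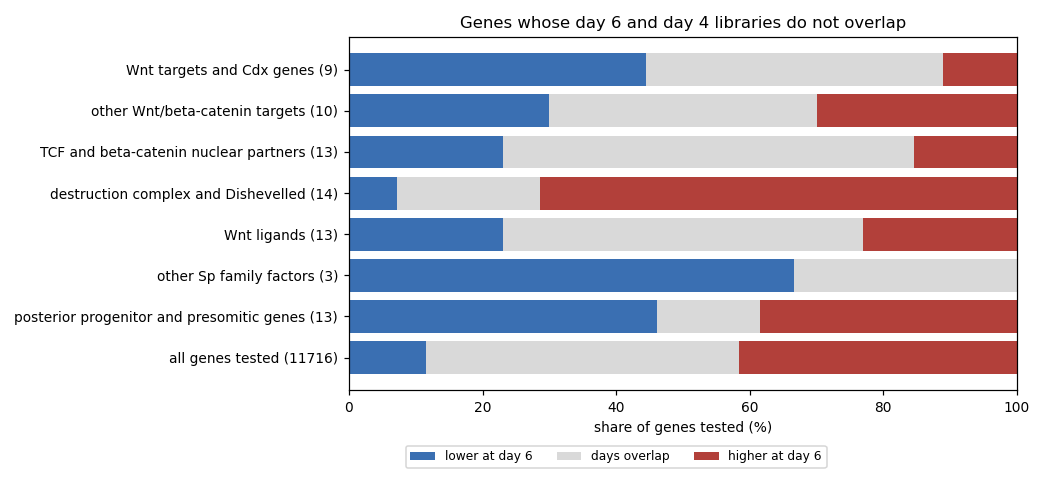
Share of tested genes in percent whose 2 day 6 libraries both lie below (blue) or above (red) the 2 day 4 libraries, or overlap with them (grey), for each list and for all genes tested, with the number tested in brackets. Of all genes 11.5% are lower and 41.6% higher, and the list of destruction complex and Dishevelled genes has 10 of 14 higher. Genes that the filter on low values kept through their higher day alone are counted.

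The genes whose profile over the 4 libraries was nearest to each member were found by Euclidean distance between gene-centred log2(FPKM + 1) values, a likeness over 4 libraries only. For Sp5 they were 1190005I06Rik, Fgf17 and Mesp1, at distances of 1.04, 1.11 and 1.18 log2 units. Fgf17, a growth factor of the tail bud, was given as 3.03 and 2.33 FPKM in day 6 cells, against 23.6 and 118 in day 4 cells. Mesp1, a factor of nascent mesoderm, was given as 0.328 and 0.501 FPKM in day 6 cells, against 3.40 and 46.3 in day 4 cells. For Axin2 they were Srf, Cpsf6 and Foxj1 (0.10 to 0.18), for Lef1 Hnrnpm, Rps14 and Sh3rf3 (0.07 to 0.12), and for Tcf7 Elavl2, Sf3a1 and Cmss1 (0.08 to 0.10). For Cdx2 they were Gmppa, Arpc1b and Fbxl12 (0.07 to 0.11), and for Cdx1 Dusp4, Ap3s1 and Pdlim7 (0.17 to 0.20). For Sp8 they were Glis2, Stk19 and Oxct2a (0.10 to 0.13), for Nkd1 C230038L03Rik, Tenm4 and Fgd5 (0.23 to 0.36), and for Notum Tmem17, Zc3h7a and Bcl10 (0.05 each). The nearest gene to Sp5 stood at 1.04 log2 units, whereas the nearest to each other tested member stood at 0.05 to 0.23. Profiles were centred but not scaled, so the distance also depends on the size of the differences, which was largest in Sp5. Likeness of shape alone was not compared.

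Evx1, the homeobox gene of the locus under study, was given as 4.88 and 4.91 FPKM in day 6 cells, against 12.1 and 133 in day 4 cells. As for Sp5, the highest value was in day 4 replicate 2, and its log2 difference was -2.83 with a standard error of 1.21 (limma, adjusted p = 0.362).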

How the data were processed

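RNA was measured in 4 stranded poly(A) RNA-seq libraries. TopHat2 version 2.0.11, CASAVA and build mm10 are named per the submitters' processing notes. The sources used here do not give the quantifier, the annotation release or the use of strand. The authors deposited 1 table per library with FPKM per transcript row, a lower and an upper bound, and a coverage signal, used here only to describe depth. File starts count from 0, so 1 was added. Symbols came from RefSeq (GRCm38.p6) and GENCODE M21 by transcript ID (95.5% of rows), and FPKM were summed per symbol. Day 6 was compared with day 4 by limma version 3.58.1 in R version 4.3.3 on log2(FPKM + 1), which understates changes of low genes, for genes averaging 1 FPKM or more (empirical Bayes with trend, two-sided, Benjamini-Hochberg over all 11716 genes, threshold 0.05). The step was tested on simulated data with far less noise than the day 4 libraries show, so that test does not show how it performs here. The GC correction subtracts a lowess curve on transcript GC content, known for 97.4% of genes tested. Depths and fragment numbers were derived from the deposited intervals, taken as 2 standard deviations of a count on each side.

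Members and lists were chosen with earlier results of these data known. Named genes are the 10 members, Evx1, up to 3 tested genes of a list with the smallest p, and the 3 nearest profiles of each member. Others, such as Axin1, Ascl2, Elf5, Tcf7l1, Tcf7l2 and genes named as lower or higher in a list, were named after their values were seen. Other libraries and proteins were not analysed here.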

Additional observations from a re-analysis of the deposited data

How the results depend on the processing

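Over 13 alternatives for each of the 9 tested members, 97 results kept their direction and side of the threshold, 13 newly passed and 7 turned sign. Those that newly passed were Sp5 with the replicate block and, for the rest, fits with a day 4 library left out. In the fits with a day 4 library left out most of all genes tested passed as well. Apart from these and the replicate block without GC correction, no gene passed under any alternative. There the side of the threshold was the same for every gene, so keeping it says nothing about the members. Sign turned for Nkd1 under median centring (-0.57), quantile normalization (-0.54), GC correction (-0.40) and GC correction with the replicate block (-0.40), and when libraries were left out (-0.51 to 0.63), and for Cdx2 when libraries were left out (-0.14 to 1.79). The cause was not tested. Leaving out a library gave 0 to 7837 genes passing (7837 without day 4 replicate 1, 6081 without day 4 replicate 2, 0 without either day 6 library), 4 to 7 members lower without overlap, and a median of the members from -1.59 to -0.32 (the last without day 4 replicate 2). Without day 4 replicate 1 the 7 were Axin2, Sp5, Sp8, Lef1, Tcf7, Cdx1 and Cdx2, and 28.7% of all genes were lower. Without day 6 replicate 1 Sp8 and Cdx1 also became lower, 6 in all, and 15% of all genes were. No call is drawn for Sp8 in these counts, since the filter on low values kept it through its day 4 level alone.

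Both days carry replicates 1 and 2, and no label states that equal numbers came from a shared culture. The culture text gives 6 days without LIF for both replicate 2 libraries, and 2 and 4 days for replicate 1 of day 4 and of day 6. The gaps of replicate 2 minus replicate 1 had a correlation of -0.09 across genes between the days. With the replicate block 67 genes passed (0.572%), among them Sp5 (limma, adjusted p = 0.0391). With the block and the GC correction 0 genes passed by limma.

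Depth limits the low members: by the interval widths, Cdx1 rested on about 34 and 14 fragments at day 6 and 20 and 64 at day 4, and Notum on about 13 in day 4 replicate 1.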

Other observations

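Nkd1 and the Lef1 row NM_010703 followed the replicate number more than the day. Nkd1 was higher in replicate 2 than in replicate 1 by 1.13 log2 units at day 6 and by 1.04 at day 4. Of 11716 genes tested, 13 were higher in replicate 2 by more than 1 log2 unit on both days and 26 were lower, and Nkd1 was the 1 member among the 13. The full-length Lef1 row was given as 3.37 FPKM (2.62 to 4.14) and 0.105 FPKM (0 to 0.263) in day 6 replicates 1 and 2, and as 8.08 FPKM (6.43 to 9.78) and 2.19 FPKM (1.24 to 3.17) in day 4 replicates 1 and 2. These values were singled out after they were seen. The culture text gives 6 days without LIF for both replicate 2 libraries, and what else equal numbers share is not given in the labels. The part of this in these values was not tested.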
